A study of Mus musculus with 7 samples.

Results

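The genes described are the nuclear genes of the mitochondrial respiratory chain and the ATP synthase, in macrophages sorted from injured mouse sciatic nerve. They were chosen by name pattern (the Nduf, Sdh, Uqcr, Cox and Atp5 families) and, among the measured values, by a minimum of 10 estimated fragments in every library. Of the 23361 genes listed in the deposited values, 82 matched the pattern and 76 met the minimum. The 76 comprised 35 genes of complex I, 4 of complex II, 8 of complex III, 11 of complex IV, 15 of complex V, and 3 genes set apart because they are not plain subunits (Cox7a2l, Atp5s and Atp5sl). Macrophages came from wild-type BALB/cJ mice whose left sciatic nerve had been transected and repaired within a conduit, so every group had been injured and no uninjured nerve was included. Cells that were F4/80+, CD14+, CD11b+ and CD16/32+ and negative for lineage markers were sorted from the tissue bridge inside the conduit, and polyA+ RNA was sequenced. The 7 libraries fell into groups of 3 (day 5 after repair), 2 (day 14) and 2 (day 28), and the question put to them here is how expression of these genes differed between the time points. The series describes the libraries as biological replicates, and whether a library stands for a single mouse or for pooled mice was not given in the sources used here.

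The respiratory chain sits in the inner mitochondrial membrane. Complex I takes electrons from NADH and complex II from succinate, complex III passes them from ubiquinol to cytochrome c, and complex IV passes them on to oxygen, while complexes I, III and IV pump protons that drive ATP synthesis by complex V. In macrophages, the balance between this chain and glycolysis is known to shift with activation state, with inflammatory activation leaning on glycolysis and alternative activation on oxidative metabolism. The chain subunits encoded in mitochondrial DNA were searched for by name and not found among the genes listed, so they are not described.

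The libraries held 18.03 to 35.25 M fragments assigned to genes. The deepest was day 28 replicate 1. Transcript levels are given as FPKM, which corrects the fragments of a gene for its length and for library size. Differences are log2 fold changes from a single edgeR fit of all 7 libraries, and a gene was called at a Benjamini-Hochberg adjusted p under 0.05 over the 12858 genes tested. The summed level of 9 macrophage marker genes was 16417 to 22489 FPKM. Some of these genes, such as Cd14 and Itgam (CD11b), encode proteins on which the cells were sorted, so the sum is no separate test of identity. Summed levels of other marker lists also moved with time. The 5 endothelial genes summed to 14.6 to 26.9 FPKM at day 5, 7.35 to 14.0 at day 14 and 3.75 to 6.86 at day 28. The 8 Schwann cell genes summed to 246 to 297 FPKM at day 5, 165 to 284 at day 14 and 159 to 161 at day 28. Single genes of these lists went both ways between days 5 and 28. Of the 4 Schwann cell genes tested, 1 was called higher and 1 lower (edgeR). Of the 5 endothelial genes tested, 1 was called higher and 2 lower, while 15.2% of all genes tested were called. The 6 fibroblast genes summed to 27.8 to 72.1 FPKM at day 5, 80.2 to 222 at day 14 and 34.9 to 56.1 at day 28, and the 7 neutrophil genes in the table to 258 to 285, 523 to 532 and 118 to 261, with Elane at 0 throughout. The 5 T cell genes in the table summed to 2.55 to 3.98 FPKM, 8.31 to 13.8 and 4.70 to 7.06, the 5 erythroid genes to 28.2 to 43.6, 7.52 to 49.4 and 2.22 to 9.85, and the 6 genes of proliferating cells to 26.5 to 29.9, 33.5 to 41.0 and 24.7 to 39.2, with 3 of these 6 called higher at day 14 than at day 5 (edgeR). Of the 9 macrophage genes, 1 was called lower at day 14 and 2 at day 28, each against day 5. Over all genes tested, 4.78% were called at day 14 and 15.2% at day 28 against day 5. The 1 T cell gene tested was called higher at both days, and 1 of 6 fibroblast genes higher at day 14. At day 28, 1 of 2 erythroid genes tested was called lower and 1 of the 6 genes of proliferating cells higher. The part of these other cells in the results below was not tested. In sorted bulk samples, fewer cells of a type and less RNA per cell cannot be told apart.

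Nuclear genes of the chain share regulators, of which nuclear respiratory factor 1 (encoded by Nrf1) is among the best known. Its core motif was therefore searched in the promoters of the chain genes, and because the transcript of Nrf1 itself changed over time (below), the stretches that hold the motif are printed. The promoters are RefSeq windows of GRCm38.p6, from 250 bases before to 50 bases after a gene's start, and 66 of the 76 genes were matched to one. The motif, cgcatgcg, reads the same on both strands. It occurred in 9 of the 66 promoters (13.6%), compared to 2.07% of 27025 genes with such a window and 4.36% of the 9554 tested genes with one. The windows of the chain genes were also richer in G and C, with a median of 58.3% compared to 52.8% over all genes. The 8 stretches with 11 bases on either side of the motif inside the window follow, read 5′ to 3′ on the strand of the gene, with the motif in capitals.
Atp5g2, chr15:102671070-102671099, minus strand: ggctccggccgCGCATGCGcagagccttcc
Atp5j, chr16:84835105-84835134, minus strand: aggccagaataCGCATGCGtacagtgcagt
Atp5k, chr5:108434430-108434459, minus strand: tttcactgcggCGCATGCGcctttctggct
Cox6a1, chr5:115349101-115349130, minus strand: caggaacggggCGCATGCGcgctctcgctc
Ndufa11, chr17:56717692-56717721, plus strand: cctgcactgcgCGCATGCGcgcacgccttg
Ndufa8, chr2:36049329-36049358, minus strand: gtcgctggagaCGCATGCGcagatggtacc
Uqcr11, chr10:80406808-80406837, minus strand: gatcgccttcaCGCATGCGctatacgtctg
Uqcrc1, chr9:108936668-108936697, plus strand: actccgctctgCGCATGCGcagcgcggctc

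The motif began 161 bases before the start in Cox6a1, 147 before it in Atp5j, and 5 before it in Uqcr11, while in Uqcrc1 it lay 31 bases after the start. The holders belonged to complexes I, III, IV and V. They included the subunits with the highest and the lowest mean FPKM among those kept, Cox6a1 and Ndufa11. In fragments, which are not corrected for length, Ndufa11 was not the lowest, with a mean of 573 compared to 48 for Cox7a1. Other core motifs were searched on both strands in the same windows. The core ccggaagt of ETS factors such as GABPA occurred in 5 promoters (7.58%, compared to 4.31% of all genes and 8.98% of tested genes), those of Atp5h, Cox8a, Ndufs3, Uqcr11 and Uqcrh. The YY1 core atggcggc occurred in 7 (10.6%, compared to 2.60% and 5.63%), including Ndufa7, Ndufb5 and Ndufs7. A match describes these letters only and shows no binding.

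Transcripts of the chain were abundant in the sorted macrophages. Over the 7 libraries, the median of the mean FPKM was 86.3 for the 76 genes and 7.71 for all genes tested, a contrast that the minimum on fragments favours. Complexes IV and V stood above the others in FPKM, with medians of 224 and 186, followed by complex III with 125, complex II with 68.2 and complex I with 64.9. Within complex I, levels ran from 9.97 FPKM for the accessory subunit Ndufa11 to 140 FPKM for Ndufa7. Complex II was the most even, from 59.6 FPKM for the flavoprotein Sdha to 96.2 FPKM for the iron-sulfur subunit Sdhb. In complex III, the core protein gene Uqcrc2 was lowest at 38.9 FPKM and Uqcrq, which encodes a small ubiquinone-binding subunit, highest at 167 FPKM. In complex IV, levels ran from 12.9 FPKM for Cox7a1 to 368 FPKM for Cox6a1, and in complex V from 61.8 FPKM for Atp5g1 to 350 FPKM for Atp5e, the epsilon subunit of the F1 part. The plot of levels in each library shows the core genes.

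**Figure D1:**
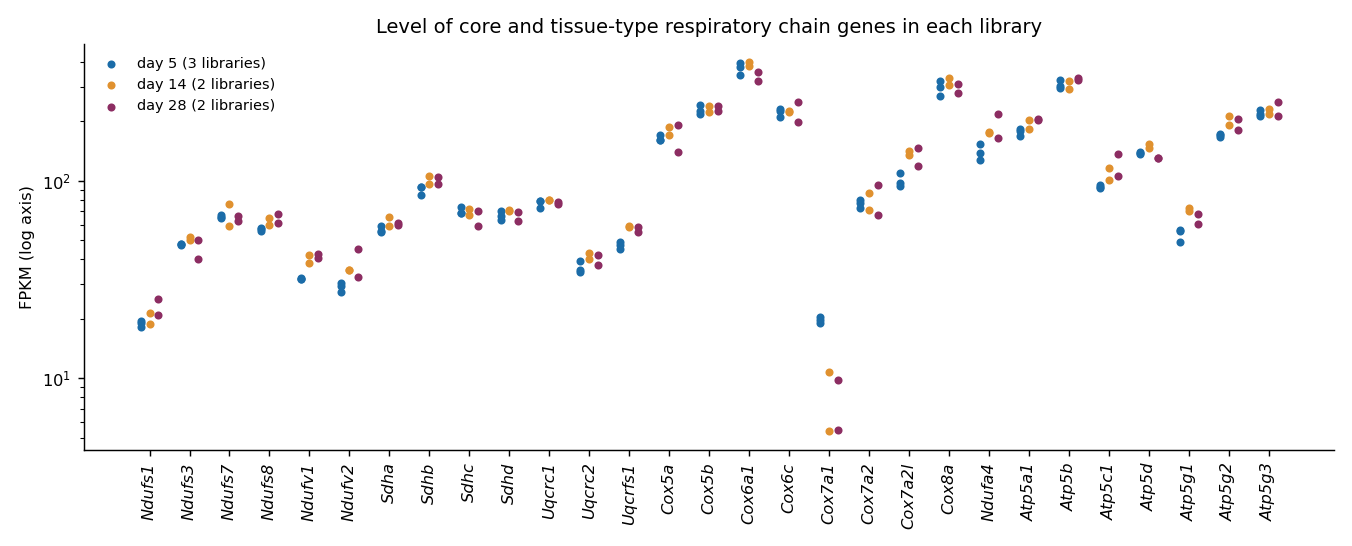
FPKM (log axis) of core and tissue-type respiratory chain genes in each library, 1 point per library, coloured by day (3 libraries at day 5, 2 at day 14, 2 at day 28). Differences between genes were far larger than those between days, and Cox7a1 is the gene whose day 5 points sit furthest above the later ones.

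Forms of subunits that belong to other tissues were near or under the minimum. Cox8b and Cox7b2 had no fragment in any library, and Cox8c had 2 in a single day 28 library. Cox6a2, the heart and skeletal muscle form of Cox6a, had 2 to 27 fragments per library, and Cox6b2, the testis form, 3 to 23. Ndufa4l2, a hypoxia-induced paralog of Ndufa4, had 38 fragments in day 5 replicate 1 and 0 to 8 in the other libraries. These 6 genes fell under the minimum. The members closest above it were Cox7a1, with at least 20 fragments in every library, and Atp5s, with at least 23, while 73 of the 76 had at least 100 everywhere.

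Across time, few genes of the chain were called. Between days 5 and 14, none of the 76 genes was called, compared to 4.78% of all genes tested (quasi-likelihood F test of edgeR, Benjamini-Hochberg adjusted), and 10 had an unadjusted p under 0.05 (13.2%, compared to 24.0% of all genes), 9 of them higher and 1 lower at the later time. Between days 14 and 28, again none was called, compared to 0.0622% of all genes tested, and none had an unadjusted p under 0.05. Between days 5 and 28, 1 of the 76 was called (1.32%), compared to 15.2% of all genes tested, and 14 had an unadjusted p under 0.05 (18.4%, compared to 31.5%), 12 of them higher and 2 lower. With DESeq2, the counts called were 2, 0 and 3, compared to 1309, 322 and 2370 of the 23361 genes listed. Only 17299 of these had any fragment, so the DESeq2 counts give no share of genes tested.

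The median log2 fold change of the 76 genes was 0.08 between days 5 and 14, 0.00 between days 14 and 28 and 0.10 between days 5 and 28, compared to 0.03, 0.01 and 0.03 for all genes tested. Most of the differences were positive in the comparisons with day 5, in 59 of 76 genes at day 14 (77.6%, compared to 52.9% of all genes) and in 51 of 76 at day 28 (67.1%, compared to 53.2%). Both comparisons use the same day 5 libraries. From day 5 to day 28, the chain genes between the lower and upper quartile lay from -0.03 to 0.21 on the log2 scale, and those of all genes from -0.25 to 0.37. In FPKM, 24 of the 76 genes were higher in both day 28 libraries than in any day 5 library (31.6%, compared to 26% of all genes tested), and 8 were lower (10.5%, compared to 25.6%).

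How large a difference the libraries leave room for was read from the 95% intervals of the fold changes. These intervals lay wholly within a 2-fold difference for 72 of 76 genes between days 5 and 14, 73 between days 14 and 28 and 73 between days 5 and 28, compared to 65.2%, 66.8% and 61.3% of all genes. They lay within a 1.5-fold difference for 64, 69 and 61 of the 76, compared to 38.0%, 39.0% and 34.4% of all genes. The intervals of Cox7a1, Atp5s and Ndufs5 reached past 2-fold in every comparison, and that of Atp5sl did between days 5 and 14. The fold changes of the chain genes, which are abundant (above), had a median SE of 0.12 between days 5 and 28, compared to 0.18 over all genes. The distribution plot shows the narrow spread of the chain genes beside that of all genes.

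**Figure D2:**
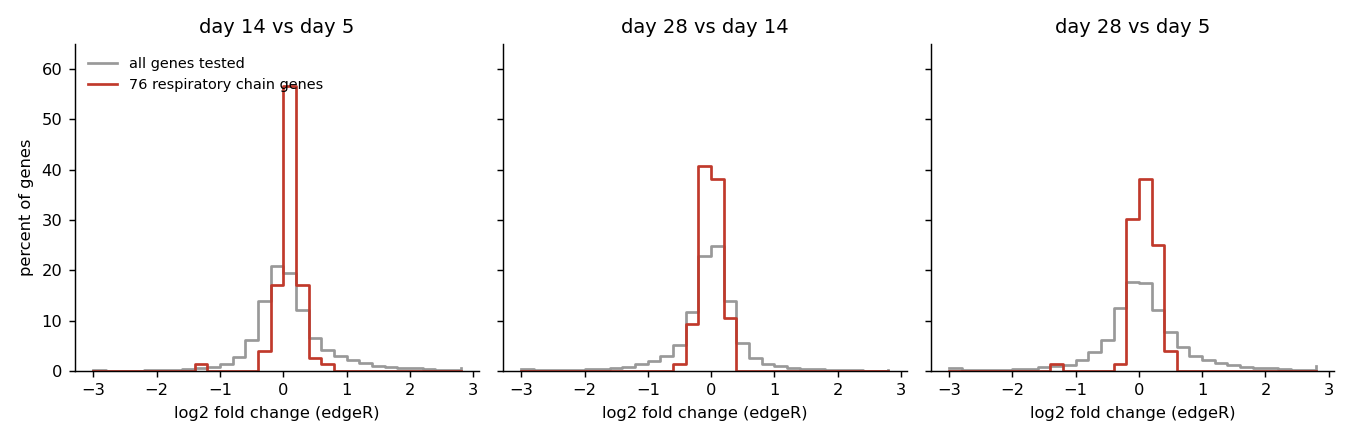
Percent of genes (vertical axis) in bins of log2 fold change (horizontal axis), for the 76 respiratory chain genes in red and all 12858 genes tested in grey, in the 3 comparisons, with values past the ends placed in the end bins. The red curves are narrower than the grey ones in each comparison, and the isolated red step at the left in the comparisons with day 5 is Cox7a1.

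In complex I, Ndufv1 rose. Ndufv1 (chromosome 19, 4007384 to 4012806, minus strand of GRCm38) encodes the flavoprotein that binds NADH and takes up its electrons. It was expressed at 31.7, 32.0 and 32.1 FPKM in the day 5 libraries, 38.5 and 42.3 FPKM at day 14, and 42.5 and 40.5 FPKM at day 28. The day 5 libraries were nearly alike, and every later library lay above them. Between days 5 and 28 it rose by 0.39 on the log2 scale (SE 0.10, 95% interval 0.16 to 0.62, Benjamini-Hochberg adjusted p = 0.0324, quasi-likelihood F test of edgeR), a 1.31-fold difference. Between days 5 and 14 its difference was 0.35 (adjusted p = 0.0804, edgeR), and between days 14 and 28 it was 0.04 (95% interval -0.21 to 0.30). The call at day 28 held in 10 of 17 alternatives (adjusted p = 0.0202 to 0.154 over them), and was lost when any single day 5 or day 28 library was left out (adjusted p = 0.0727 to 0.154).

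Ndufv2, the iron-sulfur partner of Ndufv1 in the NADH-binding module, showed a difference of similar size with a wider spread. Its levels were 29.3, 27.2 and 30.4 FPKM at day 5, 35.2 and 35.5 FPKM at day 14, and 45.3 and 32.7 FPKM at day 28. The groups did not overlap with day 5, but the 2 day 28 libraries lay far apart, and the log2 fold change of 0.45 from day 5 to day 28 was not called (95% interval 0.12 to 0.77, adjusted p = 0.0670, edgeR). It was 0.18 without day 28 replicate 1 and 0.65 without day 28 replicate 2, and was called in 5 of 17 alternatives. The core gene Ndufs1, the largest iron-sulfur subunit, went from 18.1, 19.2 and 19.5 FPKM at day 5 to 25.2 and 21.0 FPKM at day 28 (log2 fold change 0.30, adjusted p = 0.129, edgeR). Ndufa7, the member of complex I with the highest mean FPKM, lay the other way. It was expressed at 148, 152 and 155 FPKM at day 5, 153 and 134 FPKM at day 14, and 122 and 115 FPKM at day 28, with no overlap between days 5 and 28 (log2 fold change -0.34, 95% interval -0.59 to -0.09, adjusted p = 0.0661, edgeR).

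Other core subunits of complex I had smaller differences. Ndufs3, Ndufs7 and Ndufs8, which belong to the arm that carries electrons towards ubiquinone, had log2 fold changes from day 5 to day 28 of -0.06, -0.02 and 0.21, with intervals from -0.34 to 0.45 at their outer bounds. Over the 35 genes, the median difference was 0.08 both at day 14 and at day 28 relative to day 5, with 26 and 19 genes above 0. Ndufs5, singled out here after its values were seen, varied most within a day, with 18.1, 36.0 and 56.8 FPKM in the day 5 libraries. It was the only member whose estimated fragments were not whole numbers (tolerance 0.01), and how reads with several origins were shared is not stated, so its values are uncertain.

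Succinate dehydrogenase, complex II, feeds electrons from the TCA cycle and is the complex on which itaconate acts. None of its 4 genes was called. Sdha was expressed at 55.2, 55.8 and 59.4 FPKM at day 5, 59.3 and 65.9 FPKM at day 14, and 61.5 and 60.0 FPKM at day 28. Sdhb was expressed at 84.9, 93.0 and 92.8 FPKM at day 5, 96.2 and 105 FPKM at day 14, and 105 and 96.9 FPKM at day 28. Both lay slightly above their day 5 range in the day 28 libraries, with log2 fold changes from day 5 to day 28 of 0.11 (95% interval -0.13 to 0.35) and 0.17 (-0.07 to 0.41). The membrane anchors Sdhc and Sdhd overlapped between days 5 and 28, with differences of -0.10 and 0.00, and the lowest adjusted p of the 4 genes in any comparison was 0.301 (edgeR).

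In complex III, Uqcrfs1, the Rieske iron-sulfur protein, was expressed at 44.9, 49.2 and 47.6 FPKM at day 5, 58.2 and 59.3 FPKM at day 14, and 58.2 and 55.2 FPKM at day 28. Every later library lay above the day 5 libraries, and the log2 fold changes of 0.32 at day 14 (95% interval 0.10 to 0.55, adjusted p = 0.0923) and 0.28 at day 28 (0.05 to 0.50, adjusted p = 0.0932) were not called by edgeR. The core proteins differed less. Uqcrc1, whose promoter holds the printed motif, had levels of 73.2 to 80.2 FPKM over all 7 libraries (log2 fold change 0.01 from day 5 to day 28), and Uqcrc2 34.4 to 43.1 FPKM (0.14). The median difference from day 5 to day 28 was 0.17 over the 8 genes, of which 7 were positive and none was called.

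Complex IV held the largest difference of a subunit, in its least abundant member. Cox7a1 (chromosome 7, 30184144 to 30186078, plus strand of GRCm38) encodes the form of subunit 7a typical of heart and skeletal muscle. It was expressed at 20.4, 19.7 and 19.0 FPKM at day 5, 10.7 and 5.39 FPKM at day 14, and 5.48 and 9.74 FPKM at day 28. These rest on 82, 67 and 69 fragments, then 32 and 20, then 35 and 31. All later libraries lay well under those of day 5, and the log2 fold changes of -1.30 at day 14 (95% interval -2.27 to -0.32, adjusted p = 0.111) and -1.39 at day 28 (-2.35 to -0.42, adjusted p = 0.0584) were not called by edgeR. The day 28 difference was called in 7 of 17 alternatives, DESeq2 among them. Of the 9 genes of the muscle list, Mb and Cox8b were at 0 in every library, and Acta1, Ckm, Myh1, Myh4 and Des at no more than 0.848 FPKM. Cox6a2, the muscle form of another subunit, had 2.42, 1.70 and 2.19 FPKM at day 5, 1.45 and 1.46 FPKM at day 14, and 0.960 and 0.227 FPKM at day 28, and lay lower in the later libraries as Cox7a1 did (log2 fold change -1.68 from day 5 to day 28, adjusted p = 0.128, edgeR). Acta1 had 0, 16 and 11 fragments at day 5, 3 in each day 14 library and 0 in both of day 28 (adjusted p = 0.0939 from day 5 to day 28, edgeR). Not all genes of the list went this way. Ckm had 9, 4 and 1 fragments at day 5, 9 and 2 at day 14, and 1 and 11 at day 28. Myh1 had 0 in the day 5 libraries, 0 and 4 at day 14, and 0 and 2 at day 28. Myh4 had 2 to 4 fragments at day 5 and 0 later. Des had 31 to 34 fragments at day 5, 15 and 14 at day 14, and 37 and 17 at day 28. The summed level of the list was 22.5 to 23.8 FPKM at day 5, 7.38 to 13.1 at day 14 and 6.95 to 10.9 at day 28, most of it from Cox7a1 itself, and the part of muscle RNA in the difference was not tested. The broadly expressed paralog Cox7a2 was expressed at 79.9, 77.2 and 72.7 FPKM at day 5, 71.5 and 87.2 FPKM at day 14, and 95.8 and 67.1 FPKM at day 28, with overlapping groups.

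Ndufa4, which carries a complex I name but is a subunit of complex IV, was expressed at 139, 128 and 154 FPKM at day 5, 178 and 175 FPKM at day 14, and 219 and 164.5 FPKM at day 28. The later libraries all lay above day 5, and the log2 fold change of 0.47 from day 5 to day 28 was not called (95% interval 0.15 to 0.79, adjusted p = 0.0553, edgeR). It was 0.24 without day 28 replicate 1 and 0.65 without day 28 replicate 2, and was called in 5 of 17 alternatives. Other nuclear subunits had smaller differences. Cox5b, a zinc-binding subunit, stayed between 219 and 242 FPKM in all 7 libraries, and its 95% interval from day 5 to day 28 ran from -0.20 to 0.27 on the log2 scale. Cox6a1, the most abundant transcript of the chain, had 378, 344 and 397 FPKM at day 5, 398 and 380 FPKM at day 14, and 322 and 358 FPKM at day 28, a difference of -0.12 on the log2 scale (95% interval -0.37 to 0.13) between days 5 and 28. Cox5a, Cox6c and Cox8a had differences of 0.03, 0.03 and 0.01 over the same span.

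The catalytic core of ATP synthase, complex V, had no called gene either. Atp5a1 and Atp5b encode the alpha and beta subunits that form the catalytic ring. Atp5b was expressed at 323, 301 and 294 FPKM at day 5, 291 and 321 FPKM at day 14, and 331 and 325 FPKM at day 28, and Atp5a1 at no more than 183 FPKM at day 5 and at 204 and 205 FPKM at day 28. The log2 fold changes between days 5 and 28 were 0.11 for Atp5b (95% interval -0.14 to 0.37) and 0.23 for Atp5a1 (-0.03 to 0.48, adjusted p = 0.201, edgeR). Atp5c1, the gamma subunit of the central rotor stalk, was expressed at 92.4, 95.5 and 93.4 FPKM at day 5, 101 and 116 FPKM at day 14, and 138 and 105 FPKM at day 28 (log2 fold change 0.39, 95% interval 0.09 to 0.69, adjusted p = 0.0791, edgeR). Day 28 replicate 1 was the highest library for Atp5c1 and also for Ndufa4 and Ndufv2. Atp5d, the delta subunit, had 136, 138 and 140.3 FPKM at day 5 and 131 and 130.4 FPKM at day 28, a small difference in the other direction (log2 fold change -0.07).

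The c ring of ATP synthase is built from copies of a single mature protein that Atp5g1, Atp5g2 and Atp5g3 all encode. Their mean levels were 61.8, 186 and 225 FPKM, so Atp5g1 was the minor source in these cells. It was also the one that differed most over time, with 56.4, 49.0 and 55.4 FPKM at day 5, 72.7 and 70.8 FPKM at day 14, and 68.0 and 60.3 FPKM at day 28. The later libraries all lay above those of day 5, and the log2 fold change of 0.43 at day 14 was not called (95% interval 0.17 to 0.70, adjusted p = 0.0677, edgeR). Atp5g3 overlapped between all days, with a difference of 0.04 at day 14 and 0.09 at day 28.

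Of the genes set apart, Cox7a2l encodes a factor linked to supercomplexes of complexes III and IV, which were not measured here. It was expressed at 110, 97.5 and 94.3 FPKM at day 5, 136 and 141 FPKM at day 14, and 147 and 119 FPKM at day 28. All later libraries lay above day 5, with log2 fold changes of 0.47 at day 14 (95% interval 0.19 to 0.76, adjusted p = 0.0642) and 0.42 at day 28 (0.13 to 0.70, adjusted p = 0.0544) that edgeR did not call. DESeq2 called it in both comparisons. The day 28 difference was 0.26 without day 28 replicate 1 (adjusted p = 0.304) and 0.56 without day 28 replicate 2 (adjusted p = 0.0456, edgeR), and was called in 6 of 17 alternatives. Atp5sl, listed as Dmac2 in GENCODE and named for a role in assembly of the distal membrane arm of complex I, had the largest positive difference at day 14 and is singled out after its values were seen. Its levels were 4.43, 4.35 and 4.73 FPKM at day 5, 6.89 and 7.17 FPKM at day 14, and 5.97 and 4.51 FPKM at day 28, so that both day 14 libraries and day 28 replicate 1 lay above day 5 (log2 fold change 0.65 at day 14, 95% interval 0.27 to 1.03, adjusted p = 0.0578, edgeR).

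**Figure D3:**
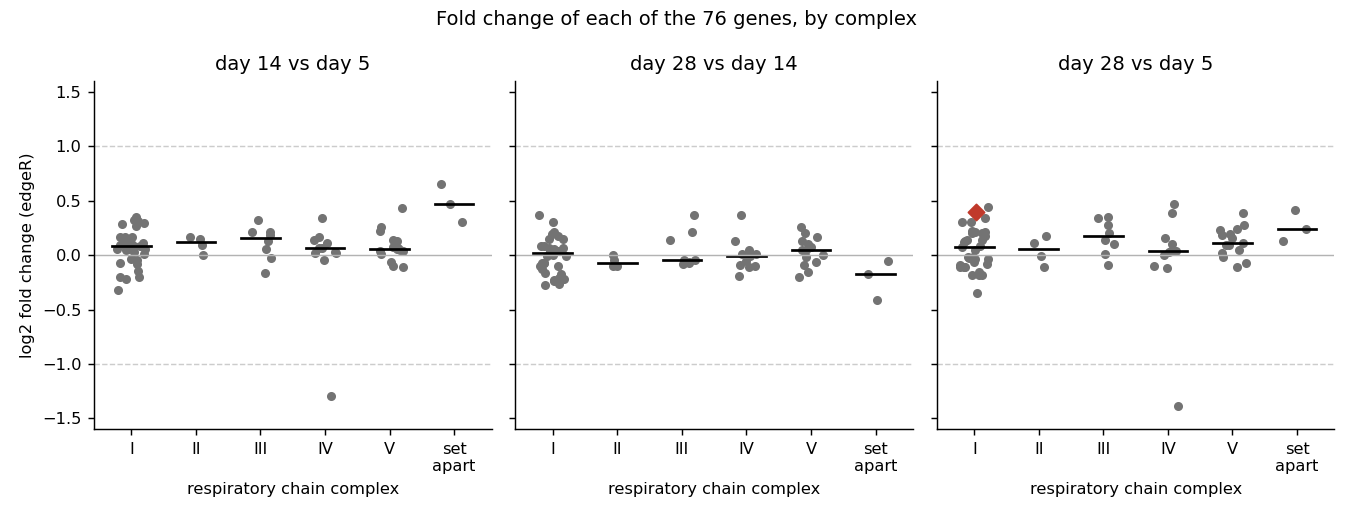
log2 fold change (edgeR) of each of the 76 genes, grouped by complex, in the 3 comparisons, with a bar at the median of each complex and dashed lines at a 2-fold difference. The red diamond is Ndufv1 (0.39), the called gene, and Cox7a1 in complex IV (-1.30 at day 14, -1.39 at day 28) is the gene outside the dashed lines.

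As a whole, the chain took 0.446%, 0.444% and 0.464% of the fragments in the day 5 libraries, 0.487% and 0.552% at day 14, and 0.576% and 0.506% at day 28. Every later library lay above the day 5 libraries. A share of fragments depends on what the most abundant other genes take, and after TMM normalization the picture was less even. The median log2 deviation of the 76 genes from their mean over the 7 libraries was -0.01, -0.06 and -0.06 at day 5, 0.01 and 0.09 at day 14, and 0.14 and -0.05 at day 28. The 2 day 28 libraries thus lay on either side of 0, and day 28 replicate 2 lay within the range of day 5. Without day 28 replicate 1, the median log2 fold change from day 5 to day 28 was -0.01, and without day 28 replicate 2 it was 0.19. Day 28 replicate 1 was also the deepest library and the one with the least of the ribosomal RNA gene Rn45s, at 0.863% of fragments, compared to 1.85% to 3.12% in the others. The part of depth and ribosomal RNA in this difference was not tested.

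**Figure D4:**
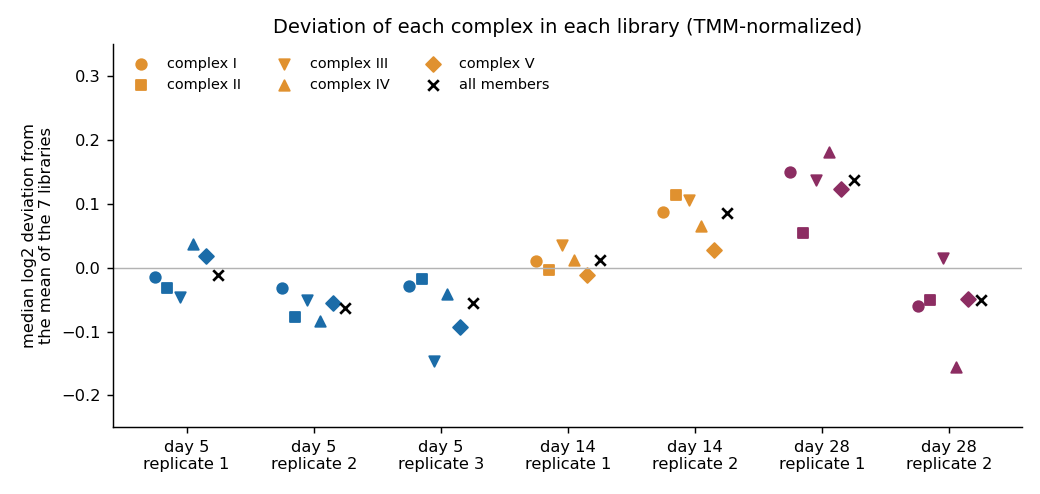
Median log2 deviation from the mean of the 7 libraries (vertical axis, TMM-normalized) for each complex and for all members in each library, coloured by day. All complexes lie above 0 in day 28 replicate 1 (from 0.05 for complex II to 0.18 for complex IV), and all except complex III lie under 0 in day 28 replicate 2.

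Chain genes that the name pattern misses were also read out. Of 9 tested, none was called in any comparison (edgeR), and Cox4i1, the main form of the largest nuclear complex IV subunit, stayed between 424 and 488 FPKM. Its hypoxia-linked paralog Cox4i2 had no more than 1.21 FPKM. Cyc1, which carries the heme of complex III that reduces cytochrome c, stayed between 59.5 and 70.4 FPKM. Cycs, cytochrome c itself, was expressed at 33.4, 31.8 and 32.2 FPKM at day 5, 24.6 and 23.6 FPKM at day 14, and 31.1 and 26.1 FPKM at day 28 (log2 fold change -0.42 at day 14, 95% interval -0.68 to -0.17, adjusted p = 0.0643, edgeR).

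Of 39 assembly factors tested, 1 was called between days 5 and 28 (2.56%, compared to 15.2% of all genes tested). Ndufaf4, which helps to build an early intermediate of complex I, was expressed at 1.52, 1.64 and 1.61 FPKM at day 5, 1.43 and 2.58 FPKM at day 14, and 3.98 and 3.18 FPKM at day 28, and rose by 1.19 on the log2 scale (95% interval 0.62 to 1.76, adjusted p = 0.0161, edgeR). The call was lost without any single day 5 library or day 28 replicate 1 (adjusted p = 0.0510 to 0.134). The 25 genes of the TCA cycle and of pyruvate entry had 1 call upwards and 2 downwards between days 5 and 28 (12%, also under the share of all genes). Idh3g, a regulatory subunit of NAD-dependent isocitrate dehydrogenase, rose by 0.41 (adjusted p = 0.0232, edgeR), from 41.9 to 44.2 FPKM at day 5 to 57.0 and 57.2 FPKM at day 28. Irg1, whose enzyme diverts aconitate to itaconate, an inhibitor of complex II, fell from 298, 247 and 206 FPKM at day 5 to 164 and 103 FPKM at day 14 and 105 and 90.1 FPKM at day 28. Relative to day 5, its log2 fold changes at days 14 and 28 were -0.90 and -1.34 (edgeR adjusted p = 0.0497 and 0.00591). The day 14 call held in 5 of 17 alternatives and, of the 7 libraries, only when day 14 replicate 1 was the one left out (adjusted p = 0.0757 to 0.164 without each of the others). The day 28 call held in 16 and was lost without day 28 replicate 2 (adjusted p = 0.0516). Pdk1, a kinase that holds pyruvate out of the TCA cycle, fell by 1.06 from day 5 to day 28 (adjusted p = 0.0309, edgeR). The calls of Idh3g and Pdk1 were lost without any single day 5 or day 28 library (adjusted p = 0.0680 to 0.155).

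Of 15 regulators of mitochondrial biogenesis tested, 2 rose and 2 fell between days 5 and 28 (26.7%, compared to 15.2% of all genes), with a median log2 fold change of -0.04, compared to 0.03 for all genes. Nrf1, whose motif is printed above, fell from 12.1, 9.74 and 8.91 FPKM at day 5 to 8.15 and 7.51 FPKM at day 14 and 6.51 and 7.16 FPKM at day 28 (log2 fold change -0.57 from day 5 to day 28, 95% interval -0.92 to -0.23, adjusted p = 0.0361, edgeR). Pprc1, a coactivator of the PGC-1 family, fell by 0.67 from day 5 to day 14 and by the same amount to day 28 (adjusted p = 0.0410 and 0.0193, edgeR). Its levels were 16.8, 18.03 and 14.8 FPKM at day 5 and 9.08 to 11.6 FPKM in the later libraries. Ppargc1b, the PGC-1beta coactivator, rose from 1.22, 0.956 and 1.37 FPKM at day 5 to 2.34 and 3.11 FPKM at day 28 (log2 fold change 1.21, adjusted p = 0.0486, edgeR). Tfam, which packages and transcribes mitochondrial DNA, rose from 2.64, 2.44 and 2.21 FPKM at day 5 to 3.97 and 3.38 FPKM at day 28 (0.61, adjusted p = 0.0396, edgeR). The calls of Ppargc1b and Tfam held in 6 and 8 of 17 alternatives, and those of Nrf1 and Pprc1 at day 28 in 10 and 13. All 4 were lost without day 28 replicate 1 (adjusted p = 0.134 to 0.217) and without day 5 replicate 1 or 2 (0.0656 to 0.143), and all but Pprc1 without day 28 replicate 2 (0.0640 to 0.201). The day 14 call of Pprc1 held in 7 alternatives and was lost without day 14 replicate 2 (adjusted p = 0.173), among other libraries.

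Hypoxia-induced genes, many of which encode glycolytic enzymes, are often read beside the chain. Of 18 tested, 4 fell and none rose between days 5 and 14 (Bnip3, Egln3, Ero1l and P4ha1; 22.2%, compared to 4.78% of all genes called), and 9 fell and none rose between days 5 and 28 (50%, compared to 15.2%). The median log2 fold change was -0.44 over the first span and -0.47 over the second, compared to 0.03 for all genes in both. Bnip3, which marks mitochondria for removal, was expressed at 89.1, 76.9 and 86.5 FPKM at day 5, 43.1 and 40.1 FPKM at day 14, and 42.9 and 29.0 FPKM at day 28. All later libraries lay far under those of day 5, and the log2 fold change to day 28 was -1.21 (95% interval -1.59 to -0.83, adjusted p = 0.00302, edgeR), a call that held in all 17 alternatives. Egln3, an oxygen-sensing prolyl hydroxylase, fell by 1.42 (adjusted p = 0.0118) and the phosphofructokinase gene Pfkl by 0.72 (adjusted p = 0.00535, edgeR). Ldha, which turns pyruvate into lactate, fell from 653, 609.8 and 622 FPKM at day 5 to 479 and 423 FPKM at day 28 (log2 fold change -0.46, adjusted p = 0.0291, edgeR). The glucose transporter gene Slc2a1 and the glycolytic gene Pgk1 fell by 0.50 and 0.53. Pdk1, among the 9 called, is also on the list of TCA cycle and pyruvate entry genes above, so its call is counted in both lists. Without day 28 replicate 2, the call of Egln3 was lost (adjusted p = 0.0745), and without day 28 replicate 1 that of Pfkl (0.0559). The calls of Ldha, Slc2a1 and Pgk1 were lost without any single day 5 or day 28 library (adjusted p = 0.0559 to 0.180), and the 4 calls at day 14 without day 5 replicate 1 or 3 (0.0667 to 0.139). Vegfa and Aldoa were not called.

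**Figure D5:**
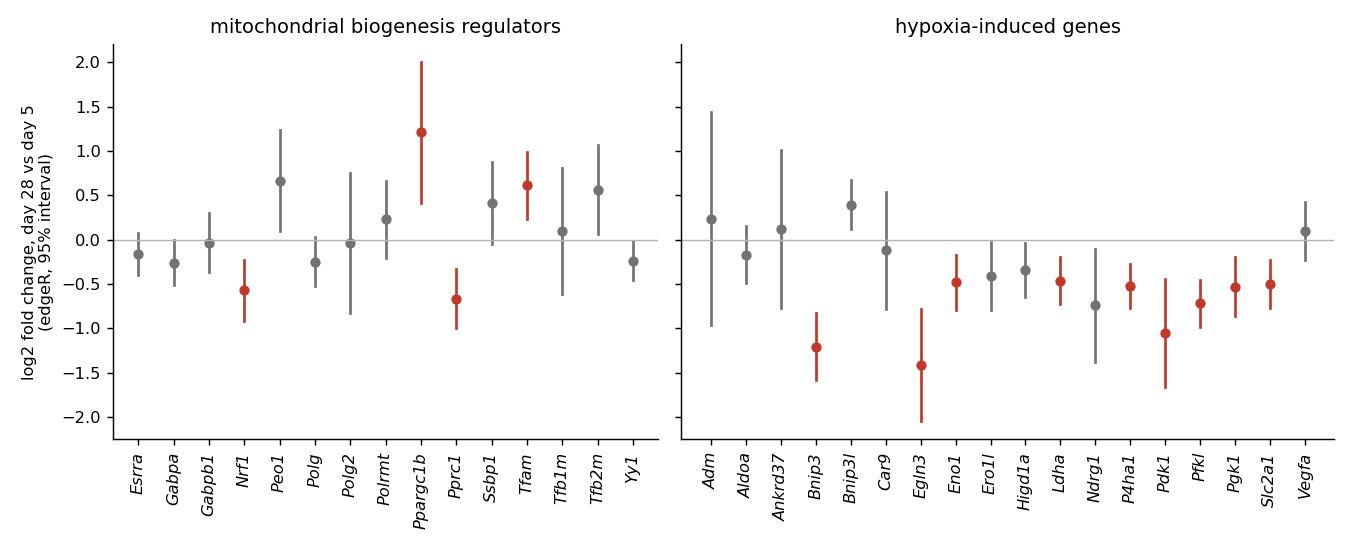
log2 fold change between days 5 and 28 (edgeR, points) with 95% intervals (lines) for tested regulators of mitochondrial biogenesis on the left and hypoxia-induced genes on the right, with called genes in red. The 9 called hypoxia-induced genes all lie under 0, whereas the called regulators lie on both sides (Nrf1 -0.57, Pprc1 -0.67, Tfam 0.61, Ppargc1b 1.21).

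Some values are less certain for reasons of position. In GENCODE M21, 17 of the 76 genes have an exon that overlaps another protein-coding gene, for example Atp5j with Gabpa, Ndufs6 with Mrpl36 and Atp5o with Donson. Whether strand was used in counting is not stated, so fragments in the shared stretches may belong to either gene. Ndufv1, Cox7a1, Cox7a2l, Ndufa4 and Ndufv2 were not among them.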

How the data were processed

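Libraries were made from polyA+ RNA of sorted macrophages with the NEBNext Ultra kit and read from a single end. Per the submitters' processing notes and the methods, the authors trimmed reads with cutadapt 1.8, mapped them to mm10 with TopHat2 2.0.13 and quantified genes with Cuffdiff 2.2.1. The deposited expected counts are the estimated fragments of each gene before scaling. The deposited signal is the same number after the authors' scaling between libraries. From these the authors derived the deposited FPKM values. Cuffdiff marked 8 values of 4 genes as failed, and these were kept.

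For tests, expected counts were rounded, genes were filtered by edgeR's expression filter with time point as group, libraries were scaled by TMM, and time was the only factor of 1 fit over the 7 libraries (edgeR 4.0.16, quasi-likelihood F test, R 4.3.3). P-values were adjusted by Benjamini-Hochberg over 12858 genes. SEs were derived from the F statistic and 95% intervals from them, so both are approximate. DESeq2 1.42.0, limma 3.58.1 on log2(FPKM + 1) or log2(FPKM + 0.1), other scalings, no expression filter, fits on 2 time points, a replicate block and each library left out were alternatives. The fits were also run on simulated counts. These gave all genes the same spread and planted changes of at least 2-fold, so they do not bear on smaller differences. Python 3.11.15 was used for summaries and plots. Totals were 18.03 to 35.25 M fragments per library, and intervals cover the spread between these libraries.

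Members and gene lists were chosen with earlier results of these data known. Most genes were named by rule, namely core subunits, members called, the highest and lowest of each complex, tissue forms, members at the minimum of 10 fragments, and the called genes of the other lists (at most 8). Some were named outside this rule, among them Ndufs5, Atp5sl, Cycs, Vegfa and Aldoa. A core subunit that the rule names is not reported here. Coordinates are those of GENCODE M21 on GRCm38, and promoters are RefSeq windows of GRCm38.p6.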

Additional observations from a re-analysis of the deposited data

How the results depend on the processing

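Between days 5 and 14, 0 genes of the chain were called in the fit of all libraries, 2 with DESeq2 and 2 without the expression filter, and 0 to 1 when single libraries were left out (1 without day 14 replicate 1). Between days 14 and 28 the count was 0 in every alternative run. Between days 5 and 28 the count was 1 in the fit of all libraries, 3 with DESeq2, 5 without the filter, 3 with limma on either log2 FPKM scale, 7 when only the 2 time points were fitted, and 0 at an adjusted p under 0.01. When single libraries were left out it ranged from 0 to 7, with 0 without any day 5 library or day 28 replicate 1, 5 without day 28 replicate 2, 6 without day 14 replicate 1 and 7 without day 14 replicate 2. Where an arm kept 1 library, that library was assumed to vary like the others. Counts over all genes moved too. Between days 5 and 14, 614 of 12858 genes were called in the fit of all libraries. DESeq2 called 1309 of the 23361 genes listed, and the unfiltered fit 1429 of the 17299 with any fragment. In the same order the counts were 8, 322 and 390 between days 14 and 28, and 1960, 2370 and 2466 between days 5 and 28. Over this last span, limma called 1802 and 1744, and the fit of 2 time points 2778. Without any single day 5 library, 820 to 967 were called. The median log2 fold change between days 5 and 28 ranged from -0.0086 (without day 28 replicate 1) to 0.188 (without day 28 replicate 2) over left-out libraries. The share of the chain, 0.451%, 0.520% and 0.541% of fragments on average at days 5, 14 and 28, was 1.51%, 1.66% and 1.74% of all FPKM, and 0.507%, 0.592% and 0.605% without the 10 most abundant genes. The causes were not tested.

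Days share replicate numbers, but the labels do not say that a number marks a shared batch, and in 7556 genes with mean FPKM from 5 upwards, libraries that share a number deviated from their day's mean with a correlation across genes of 0.29 (days 5 and 14), -0.03 (days 5 and 28) and -0.14 (days 14 and 28), so the numbers were not taken to pair the libraries. With the replicate block, 0 chain genes were called in each comparison. Of all 12858 genes, the block left 6 called between days 5 and 14, 0 between days 14 and 28 and 735 between days 5 and 28. With the day 28 numbers swapped, added after seeing the data, 0 chain genes and 1579 of all genes were called between days 5 and 28.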

Other observations

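The ribosomal proteins of mitochondria and of the cytosol were read out beside the chain. Of 76 mitochondrial ribosomal protein genes tested, 2 rose and 2 fell between days 5 and 28 (5.26%), with a median log2 fold change of 0.13. Mrpl44 rose by 0.95 (adjusted p = 0.0259, edgeR), from 3.84 to 4.97 FPKM at day 5 to 8.02 and 9.30 FPKM at day 28, and Mrps35 by 0.84 (adjusted p = 0.0365, edgeR). Mrpl45 fell by 0.44 and Mrpl54 by 0.43 (adjusted p = 0.0413 and 0.0471, edgeR). Of 77 cytosolic ribosomal protein genes tested, 6 rose and none fell (7.79%), with a median of 0.19. Rpl10a had the smallest adjusted p of these (0.00983, edgeR), with 348 to 358 FPKM at day 5 against 503 and 514 FPKM at day 28, and the others were Rpl14, Rpl36a, Rpl39, Rps18 and Rps25. Without day 28 replicate 1, none of these 10 calls was kept (adjusted p = 0.0558 for Rpl10a and 0.0846 to 0.278 for the others). Ribosomal protein genes have many near-identical copies in the genome, so their values are uncertain. Over all genes tested, the share called between days 5 and 28 was 15.2% and the median 0.03.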
